A study of Mus musculus with 5 samples.

Results

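The genes described here are 37 markers of the cells that surround neurons in the cortex, namely 12 of astrocytes, 11 of microglia, 4 of oligodendrocyte precursors, 6 of endothelial cells, and 4 of mural cells. They were chosen by name, and each was taken from the probe sets that the platform annotation gives a single symbol. All 37 had such a probe set, out of 19938 genes named on the array, and each was read by only 1 probe set, so that no choice among probe sets was needed. The arrays were made from S1 neurons of ICR mice at PD24, 3 days after Green RetroBeads had been injected into M1, which marks association neurons, or into the contralateral S1, which marks callosal neurons. There were 5 arrays. Association neurons gave 1 array for each of L2/3, L5, and L6b, callosal neurons gave 1 for L2/3 and 1 for L5, and the labels put each at about 1000 cells. The mice had also been electroporated *in utero* with a tdTomato plasmid that labels L2/3 neurons, and this applies to all 5 groups. Labeled neurons were cut out of frozen sections by laser, and how many animals stand behind each array was not given in the sources used here.

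Astrocytes take up glutamate and potassium around synapses and are joined to each other by gap junctions. Microglia are the resident immune cells of the brain and carry receptors and complement proteins of the myeloid lineage. Oligodendrocyte precursors divide in the adult cortex and give rise to myelinating cells. Endothelial cells form the blood-brain barrier, and mural cells (pericytes and smooth muscle cells) wrap the vessels. A laser cut through a section takes along whatever lies beside the soma, and the question the markers address is how much signal of each of these classes each array carried, and whether it differed between the arrays.

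All values are log2 signals minus the median log2 signal of the same array, which was 5.71 to 5.80 as deposited. A difference of 1 is a 2-fold difference. The table has no detection call, so dim signals were marked with 1205 probe sets of olfactory and vomeronasal receptor genes, receptors of the nose. A member at or under the 95th percentile of these in an array was called dim there. This mark was lowest in association L2/3 (0.09) and highest in association L5 (0.23), and 47.6% to 52.9% of all named genes exceeded it. Brightness depends on the probes as well as on the RNA, so levels are compared between arrays and not between genes. Since every group was measured once, replicate error is unknown, no p-value is given, and a difference of any size describes these arrays only. In these pooled cells, fewer cells of a type and less RNA per cell cannot be told apart.

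The captured cells carried the signals of neurons in all 5 arrays. *Snap25*, which encodes a synaptic fusion protein, stood at 6.72 to 6.90. *Slc17a7*, the vesicular glutamate transporter of cortical excitatory neurons, stood at 3.84 to 4.47. *Gad1*, which encodes an enzyme of GABA synthesis, stood between 1.18 and 2.00 in the L2/3 and L5 arrays and at 0.45 in L6b, so that signal of interneurons was also read. Many other neuronal genes were not level over the arrays. In association L6b, 3 of 7 excitatory neuron genes (*Camk2a*, *Nrgn*, and *Grin2b*) and 2 of 6 pan-neuronal genes were at least 2-fold lower than in each other array. Of all named genes, 1.79% were so called there. The pan-neuronal genes were *Rbfox3*, which encodes the neuronal marker NeuN, at 0.72 in L6b against 1.95 to 3.43, and the neurofilament gene *Nefl*, at 2.93 against 4.50 to 4.67. *Syt1*, a calcium sensor of synaptic vesicles, was so called lower in association L5 (0.522% of all named genes), at 4.87 against 5.91 to 6.13. Of 6 inhibitory neuron genes, *Pvalb* (-1.38, against 2.26 to 4.57) and *Sst* (2.45, against 3.78 to 4.66) were so called lower in L6b. Association L2/3 also stood apart in single neuronal genes. The inhibitory neuron gene *Gad2* was so called higher there (1.53% of all named genes), at 2.18, which was 1.18 above its nearest array. The excitatory neuron gene *Neurod6* was so called lower there (0.105% of all named genes), at 1.29 against 2.58 to 3.42. The part of these neuronal genes in the differences below was not tested.

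Most of the 37 markers were nearly level over the 5 arrays. The distance between a member's highest and lowest array had a median of 0.38, against 0.36 over all named genes. In 23 of the 37 members (62.2%) it was under 1.5-fold, as in 67.1% of all named genes, and in 7 members (18.9%) it was at least 2-fold, as in 19.2% of all named genes. Only *Lhfpl3* and *S100b* reached 4-fold. The mean over the 5 arrays was at or above the median in 26 members and in 11302 of all named genes. Among these brighter genes, 7 of the 26 members (26.9%) and 29.8% of all genes were at least 2-fold apart, so the markers varied about as much as other genes of the array.

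The number of members above the dim mark was similar in each array. In L2/3 it was 23 in association and 25 in callosal neurons, in L5 it was 24 and 23, and in L6b it was 22. A group of 18 members exceeded the mark in all 5 arrays (48.6%, against 42.3% of all named genes), and 9 members were dim in all 5 (24.3%, against 41.6%). The 9 were *Gfap*, *Gjb6*, *P2ry12*, *Gpr17*, *Flt1*, *Tek*, *Kdr*, *Pdgfrb*, and *Acta2*. These include the intermediate filament gene of astrocytes, a purinergic receptor gene of microglia, receptor genes for vascular growth factors and angiopoietins, and the actin gene of vascular smooth muscle. No array was the brightest for most members. Association L2/3 was highest for 10 members, callosal L2/3 for 8, association L5 and association L6b for 7 each, and callosal L5 for 5, with *Fgfr3*, equal in both callosal arrays, counted under L2/3.

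**Figure D1:**
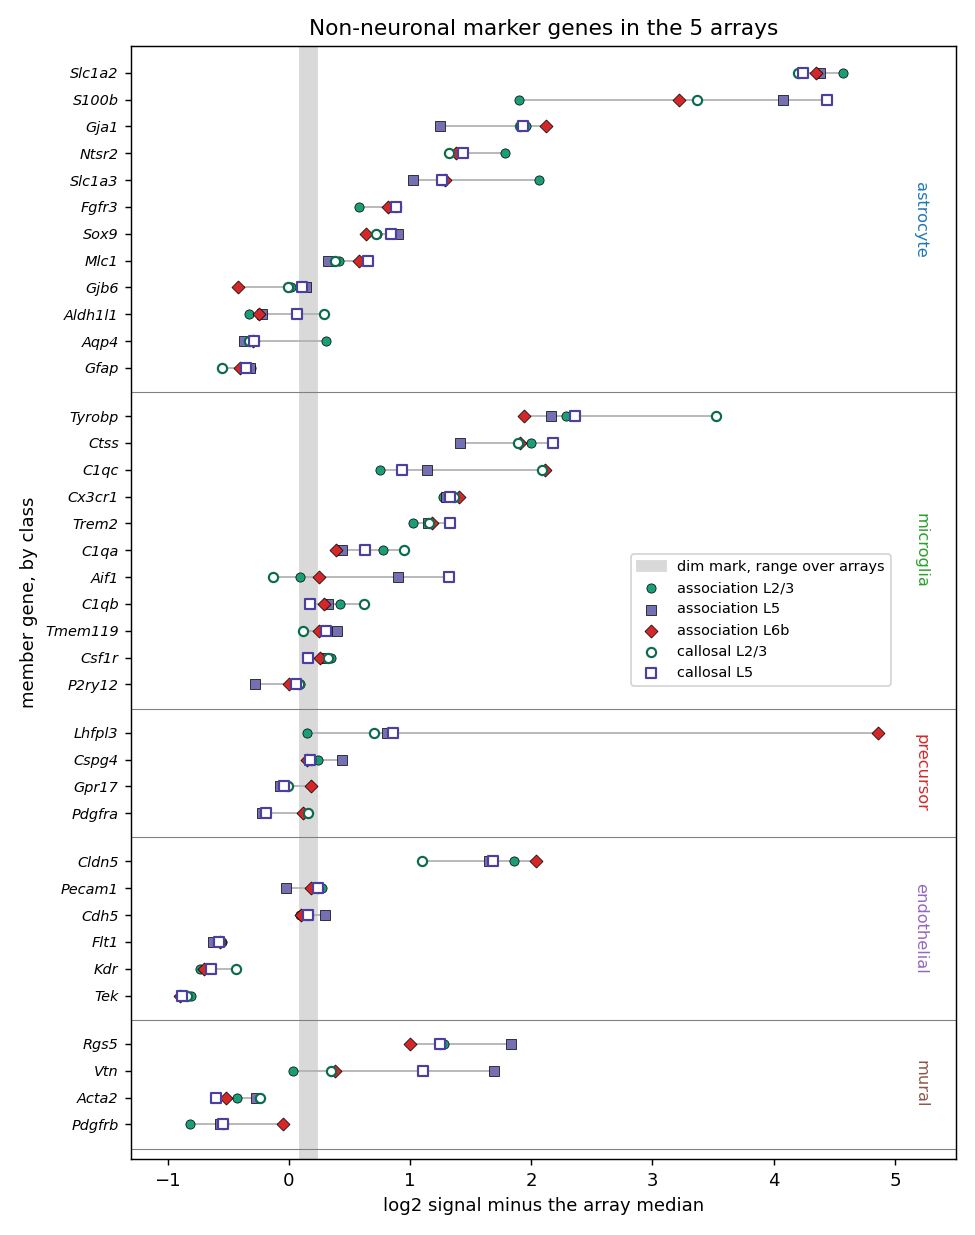
Log2 signal minus the array median (horizontal axis) of the 37 markers (vertical axis, grouped by class and ordered by mean signal) in the 5 arrays, 1 point per array, with a line from the lowest to the highest array. The gray band spans the dim mark of the arrays, 0.09 to 0.23. Most genes have their 5 points close together, and *Lhfpl3* (4.86 in association L6b, at most 0.86 elsewhere) and *S100b* (1.90 to 4.44) have the longest lines.

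When each array was set against each of the other 4, 3 of the 37 members stood apart by at least 2-fold, a share of 8.11%, and 7.74% of all named genes did so in some array. The precursor marker *Lhfpl3* was higher in association L6b, where the background share of genes so called was 0.818%. The microglial gene *Tyrobp* was higher in callosal L2/3, with a background of 1.09%. The astrocyte marker *S100b* was lower in association L2/3, with a background of 0.105%. *Lhfpl3* was 16.0-fold, *Tyrobp* 2.23-fold, and *S100b* 2.50-fold from its nearest array. The members just short of the rule were *Slc1a3* at 1.71-fold, *Gja1* at 1.58-fold, and *Aqp4* at 1.52-fold. In the other 7 combinations of array and direction no member was called, with backgrounds of 1.53% (higher) in association L2/3, 0.878% (higher) and 0.522% (lower) in association L5, 1.79% (lower) in association L6b, 0.286% (lower) in callosal L2/3, and 0.853% (higher) and 0.231% (lower) in callosal L5. No endothelial or mural marker stood apart in this way.

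Of the 12 astrocyte markers, 7 (58.3%, against 67.1% of all named genes) varied by less than 1.5-fold over the arrays. *S100b* and *Slc1a3* varied by at least 2-fold (16.7%, against 19.2%). *S100b* encodes a calcium-binding protein of astrocytes that is also made by oligodendrocytes and by some neurons. Its signal was 1.90 in association and 3.37 in callosal neurons of L2/3, 4.08 and 4.44 in those of L5, and 3.22 in L6b. Both L5 arrays were above the other arrays, and association L2/3 was below all of them. The difference between L5 and L2/3 was 2.18 (4.53-fold) in association neurons and 1.07 (2.10-fold) in callosal neurons. Between association and callosal neurons it was -1.47 in L2/3 and -0.36 in L5.

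*Slc1a3*, which encodes the glutamate transporter GLAST, stood at 2.06 in association neurons of L2/3, at 1.02 in those of L5, at 1.29 in L6b, and at 1.26 in both callosal arrays. The array of association L2/3 was therefore the high one for this gene and the low one for *S100b*. *Aqp4*, the water channel of astrocyte endfeet, was also highest there, at 0.31, with -0.37 to -0.29 in the other arrays, where it was dim. *Gja1*, which encodes the gap junction protein connexin 43, was lowest in association L5, at 1.25. It stood at 1.96 in association and 1.91 in callosal neurons of L2/3, at 1.93 in callosal neurons of L5, and at 2.12 in L6b. The gap junction gene *Gjb6* was dim throughout, from -0.42 to 0.14.

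*Slc1a2*, which encodes the glutamate transporter GLT-1, also found in some neurons, stood at 4.57 in association and 4.20 in callosal neurons of L2/3, at 4.38 and 4.24 in those of L5, and at 4.35 in L6b. These 5 values lie within 1.29-fold of each other. The neurotensin receptor gene *Ntsr2* ranged from 1.32 to 1.78, the growth factor receptor gene *Fgfr3* from 0.58 to 0.88, and the transcription factor gene *Sox9* from 0.64 to 0.90. *Mlc1*, a membrane protein gene of astrocyte endfeet, ranged from 0.32 to 0.65. *Aldh1l1*, an enzyme of folate metabolism, exceeded the dim mark in callosal L2/3 (0.29) and ranged from -0.33 to 0.07 in the others, and *Gfap* ranged from -0.55 to -0.31. The median of the 12 astrocyte markers was 0.66 in association and 0.80 in callosal neurons of L2/3, 0.88 and 0.86 in those of L5, and 0.73 in L6b.

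Of 21 other astrocyte genes with a named probe set, 6 (28.6%) were at least 2-fold apart between their highest and lowest array, against 19.2% of all named genes. *Aldoc*, a glycolytic enzyme of astrocytes, was 2.41 in association L6b and 4.61 to 5.41 elsewhere, whereas *Id3*, which encodes an inhibitor of DNA binding, was 2.50 in association L6b and 0.18 to 0.90 elsewhere. *Slc25a18*, a mitochondrial glutamate carrier, was 1.30 in association L2/3 and at most 0.25 elsewhere. *Slc4a4*, a bicarbonate transporter, was 2.14 in callosal L2/3 and at most 1.11 elsewhere. *Clu*, which encodes clusterin, was called lower in callosal L5 (2.97, against 4.03 to 4.19). These 5 of the 21 genes thus stood apart from each other array, in 4 different arrays. Among all named genes, 7.74% stood apart like this in some array.

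Among the microglial markers, *Tyrobp*, *C1qc*, and *Aif1* varied by at least 2-fold (27.3%, against 19.2% of all named genes), in differing patterns. *Tyrobp*, which encodes the signaling adaptor DAP12, stood at 2.29 in association and 3.52 in callosal neurons of L2/3, at 2.16 and 2.36 in those of L5, and at 1.94 in L6b. Only callosal L2/3 stood out, 1.23 above association neurons of the same layer and 1.16 above callosal neurons of L5. *Trem2*, the receptor that signals through this adaptor, ranged only from 1.02 to 1.33.

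The complement component C1q is assembled from the products of *C1qa*, *C1qb*, and *C1qc*. *C1qc* stood at 0.75 in association and 2.09 in callosal neurons of L2/3, at 1.14 and 0.93 in those of L5, and at 2.11 in L6b. It was thus high in the arrays of association L6b and callosal L2/3, which were 1.36 and 1.34 above association L2/3. The other chains were also highest in callosal L2/3 but did not share the high value in L6b. *C1qa* was 0.95 in callosal L2/3 and 0.39 in association L6b, its highest and lowest values, and *C1qb* was 0.62 and 0.29 in these arrays, within a range of 0.17 to 0.62.

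*Aif1*, which encodes the calcium-binding protein Iba1 used to stain microglia, stood at 0.09 in association and -0.13 in callosal neurons of L2/3, at 0.90 and 1.32 in those of L5, and at 0.25 in L6b. Both L5 arrays were above the L2/3 arrays, by 0.81 in association and 1.45 in callosal neurons, and *Aif1* was at or under the dim mark in both L2/3 arrays. The fractalkine receptor gene *Cx3cr1*, by contrast, ranged from 1.27 to 1.40. The protease gene *Ctss* was 2.00 in association and 1.89 in callosal neurons of L2/3, 1.41 and 2.18 in those of L5, and 1.91 in L6b, so that its L5 arrays were the lowest and the highest. *Csf1r*, the receptor that microglia need to survive, ranged from 0.16 to 0.35, *Tmem119* from 0.12 to 0.40, and *P2ry12*, the receptor that directs their processes, from -0.28 to 0.09. The median of the 11 microglial markers was 0.75 in association and 0.95 in callosal neurons of L2/3, 0.90 and 0.93 in those of L5, and 0.39 in L6b. Their mean was 0.85, 1.09, 0.84, 0.98, and 0.91 in the same order, so the mean was not low in L6b. Gene by gene, the median difference of L6b was -0.03 from association L5 and -0.09 from association L2/3. Over all named genes it was -0.03 and -0.06.

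Of 19 other microglial genes, 7 (36.8%) were at least 2-fold apart between their highest and lowest array, against 19.2% of all named genes. Their high arrays differed as well. *Cd68*, a lysosomal protein gene of phagocytes, was 2.43 in association L2/3 and at most 0.05 elsewhere, and *Laptm5* was 1.06 there and at most 0.05 elsewhere. *Cd53* was 0.94 in association L5 and at most -0.44 elsewhere. *P2ry13* was 0.86 in callosal L2/3 and at most -0.20 elsewhere. Each of these genes stood at least 2-fold apart from each other array, as 7.74% of all named genes did in some array. Between association and callosal neurons of L2/3, 2 of the 19 were at least 2-fold higher, *Cd68* and *Laptm5* (3.29% of all named genes). Another 2 were at least 2-fold lower, *Fcer1g* and *P2ry13* (2.29% of all named genes). *Fcer1g*, an adaptor gene related to *Tyrobp*, is named here because it completes this count.

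The precursor class held the largest difference of all members. *Lhfpl3*, a gene of the tetraspan family read in oligodendrocyte precursors, stood at 4.86 in L6b, at 0.15 in association and 0.70 in callosal neurons of L2/3, and at 0.81 and 0.86 in those of L5. It exceeded the dim mark in every array, only narrowly in association L2/3. Its L6b enrichment, the L6b value minus the mean of the other 4 arrays, was 4.23 (18.8-fold). The deposited log2 signals were between 5.86 and 6.60 in the L2/3 and L5 arrays and 10.66 in L6b, so that the median subtraction does not make the difference.

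The remaining precursor markers did not rise with *Lhfpl3*, and in L6b all of them were under the dim mark of 0.19. *Pdgfra*, the growth factor receptor that defines these cells, stood at 0.12 in L6b, at 0.16 in callosal L2/3, and between -0.22 and -0.19 in the remaining arrays. *Cspg4*, the NG2 proteoglycan gene that is also active in pericytes, stood at 0.15 in L6b, its lowest value, at 0.24 in association and 0.18 in callosal neurons of L2/3, and at 0.44 and 0.17 in those of L5. *Gpr17*, a receptor gene of committed precursors, was 0.18 in L6b, just under the dim mark of 0.19, and between -0.07 and -0.01 in the L2/3 and L5 arrays. Their L6b enrichments were 0.23, -0.11, and 0.21, and these rest on signals near background. Of 14 other precursor genes, 0 were at least 2-fold higher in association L6b than in each other array. Of all named genes 0.818% were, so this count is near that share. The median L6b enrichment of these 14 genes was 0.02, against -0.05 over all named genes. Among them the lineage transcription factor gene *Sox10* ranged from 0.81 to 0.99, while *Olig2* was 0.91 in association L5 and at most -0.18 elsewhere.

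The myelin genes, markers of mature oligodendrocytes, did differ between the arrays, and their values belong beside those of *Lhfpl3* and *S100b*. All 10 myelin genes with a named probe set were at least 2-fold apart between their highest and lowest array, against 19.2% of all named genes. Their median was 0.61 in association and 0.56 in callosal neurons of L2/3, 1.92 and 2.15 in those of L5, and 2.38 in L6b. Their summed linear signal, in units of the array median, was 16.0, 16.8, 55.1, 35.2, and 64.2 in the same order. In association L6b, *Mog* and *Opalin* were at least 2-fold above each other array (background 0.818%). In association L5, *Mag* was so, at 3.96 against at most 1.47 elsewhere (background 0.878%). *Mobp*, *Ermn*, *Cnp*, and *Cldn11* were also highest in an L5 array, and the remaining myelin genes in L6b. Between L5 and L2/3, 5 of the 10 were at least 2-fold higher in association neurons (background 2.31%) and 5 in callosal neurons (background 2.64%). *S100b* shared the high L5 arrays and was lower in association L6b than in L5, unlike the myelin median. From association L5 to L6b, *S100b* changed by -0.86. *Mag* (-2.49), *Ermn* (-0.96), and *Mobp* (-0.54) fell as well, while the remaining myelin genes rose. With association L2/3 as reference, 9 of the 10 myelin genes gained 2-fold or more in L6b (background 1.86%), as did *S100b* (by 1.32). The part of myelin RNA in the values of *Lhfpl3* and *S100b* was not tested.

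**Figure D2:**
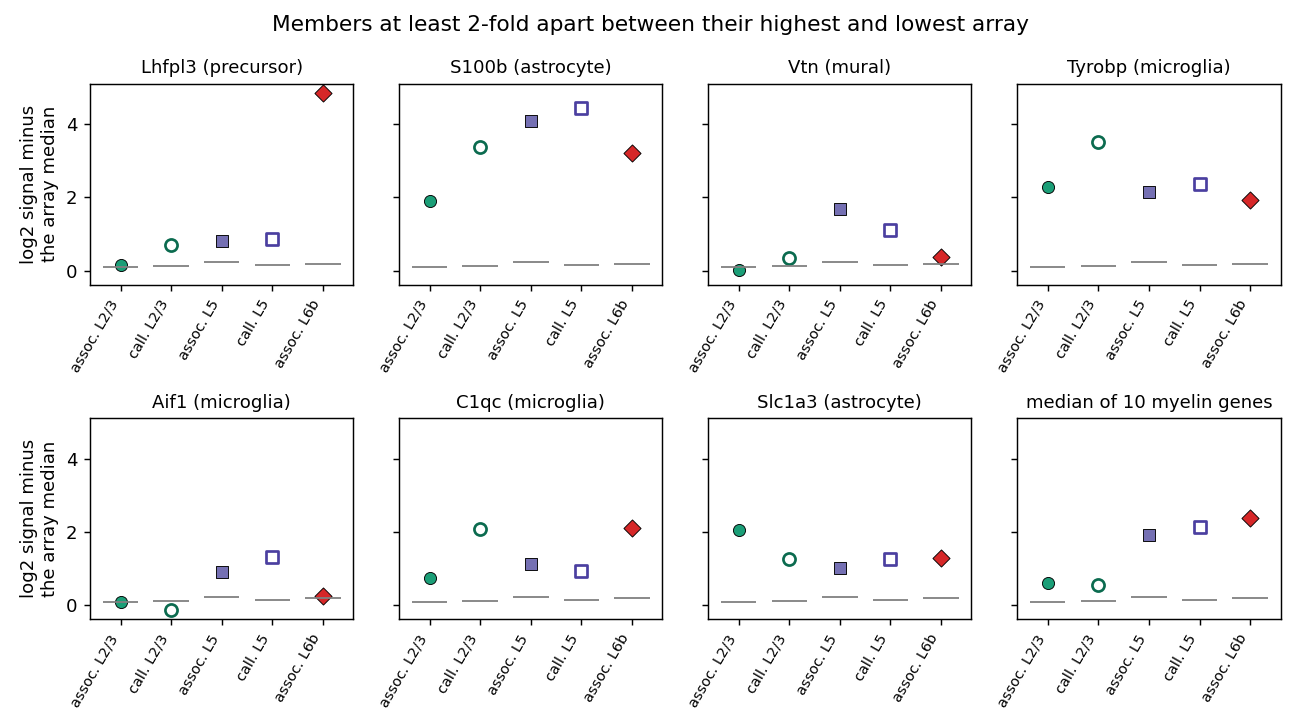
Log2 signal minus the array median (vertical axis) in the 5 arrays (horizontal axis, callosal arrays as open symbols) of the 7 members at least 2-fold apart between their highest and lowest array, and the median of 10 myelin genes. Gray dashes mark the dim mark of each array. *Lhfpl3* is high in association L6b (4.86), *S100b*, *Vtn*, and *Aif1* are highest in the L5 arrays, *Tyrobp* in callosal L2/3 (3.52), and the myelin median is lowest in both L2/3 arrays (0.61 and 0.56).

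The vascular markers were mostly dim, and no endothelial marker was 2-fold apart between any of the arrays. Of the 10, 5 were dim in all 5 arrays (50%, against 41.6% of all named genes). Only *Cldn5* and *Rgs5* exceeded the mark in every array (20%, against 42.3%). *Cldn5*, the tight junction gene of brain endothelium, stood at 1.86 in association and 1.10 in callosal neurons of L2/3, at 1.65 and 1.68 in those of L5, and at 2.04 in L6b. Its low array was callosal L2/3, 0.76 below association neurons of that layer. The adhesion genes *Pecam1* and *Cdh5* ranged from -0.02 to 0.27 and from 0.09 to 0.30. The receptor genes *Flt1*, *Kdr*, and *Tek* ranged from -0.63 to -0.55, from -0.73 to -0.44, and from -0.90 to -0.81. The median of the 6 endothelial markers was -0.23 in association and -0.14 in callosal neurons of L2/3, -0.33 and -0.21 in those of L5, and -0.24 in L6b.

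Of the mural markers, *Vtn* and *Rgs5* were highest in association L5. *Vtn*, which encodes the matrix protein vitronectin made by pericytes, stood at 0.03 in association and 0.35 in callosal neurons of L2/3, at 1.69 and 1.11 in those of L5, and at 0.38 in L6b. Both L5 arrays were above the others, by 1.66 over L2/3 in association neurons and by 0.76 in callosal neurons. *Rgs5*, a regulator of G protein signaling in pericytes, stood at 1.28 in association neurons of L2/3, at 1.83 in those of L5, at 1.0 in those of L6b, and at 1.25 in both callosal arrays, so that callosal L5 was not raised. *Acta2* was dim, at -0.43 in association and -0.24 in callosal neurons of L2/3, -0.27 and -0.60 in those of L5, and -0.52 in L6b. *Pdgfrb*, the receptor of pericytes, was dim at -0.82 to -0.05, with its highest value in association L6b.

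Of 18 other endothelial genes, 4 (22.2%) were at least 2-fold apart between their highest and lowest array, against 19.2% of all named genes. *Itm2a* was 2.06 in association L5 and at most 1.01 elsewhere. *Cd34*, a surface protein gene of endothelium, was 1.90 in association L6b and 3.00 to 3.38 elsewhere. Both stood at least 2-fold apart from each other array, as 7.74% of all named genes did in some array. Of 14 other mural genes, 0 were at least 2-fold apart. However, 8 of them were dim in all 5 arrays (57.1%, against 41.6% of all named genes), and 3 exceeded the mark in all 5 (21.4%, against 42.3%). Their median was -0.14 in association and -0.02 in callosal neurons of L5, against -0.12 and -0.24 in those of L2/3. These medians are under the dim mark, so they cannot show whether the list followed *Vtn* into the L5 arrays.

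**Figure D3:**
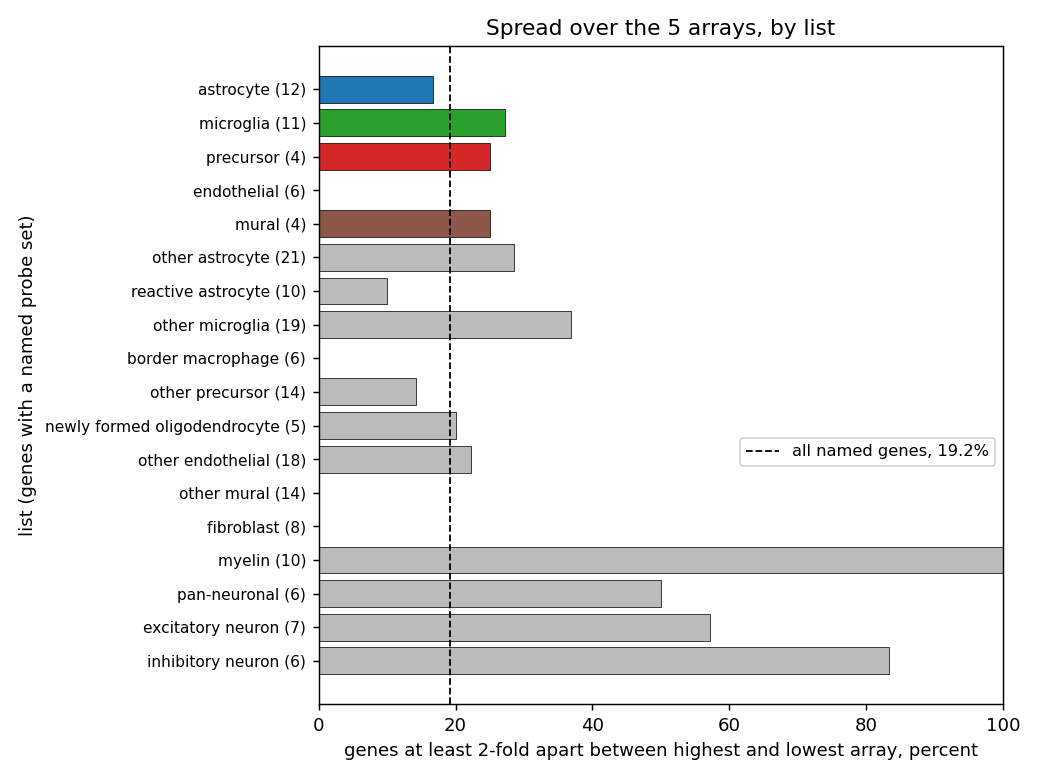
Share of genes (horizontal axis, percent) at least 2-fold apart between their highest and lowest array, for the 5 marker classes (colored bars) and 13 other lists (gray bars), with the number of genes in parentheses. The dashed line marks all named genes, 19.2%. The marker classes lie between 0% and 27.3%, and all 10 myelin genes (100%) pass. A list of blood genes, with 1 named gene, is not drawn.

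The arrays were then compared in 6 pairs, which change either the projection or the layer. Between association and callosal neurons of L2/3, no member was at least 2-fold higher in association neurons (background 3.29%), and 3 of 37 were at least 2-fold lower, *S100b*, *C1qc*, and *Tyrobp* (8.11%, background 2.29%). Between association and callosal neurons of L5, no member was at least 2-fold apart in either direction (backgrounds 2.29% higher and 3.22% lower). The largest differences there were -0.77 for *Ctss*, -0.68 for *Gja1*, and 0.58 for *Vtn* and *Rgs5*. The median difference of the 37 members was 0.01 in L2/3 and -0.03 in L5, against 0.03 and -0.03 over all named genes.

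Between L5 and L2/3, the association arrays and the callosal arrays had only *S100b* in common among the members called. In association neurons *S100b* and *Vtn* were higher in L5 (5.41% of members, background 2.31%) and *Slc1a3* was lower by 1.04 (2.70%, background 4.73%), a call that was lost under each other scaling tried. In callosal neurons *S100b* and *Aif1* were higher in L5 (5.41%, background 2.64%) and *C1qc* and *Tyrobp* were lower, each by 1.16 (5.41%, background 2.92%). *Aif1* rested on dim signals in L2/3 of both projections, and *Vtn* on a dim signal in association L2/3. Whether the layer difference of a gene differed between the projections could not be tested with 1 array each.

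For association L6b, *Lhfpl3* was the only member at least 2-fold higher than in association L5 (2.70%, background 2.27%), and *Vtn* was the only one at least 2-fold lower, by 1.31 (2.70%, background 4.59%). *C1qc* fell just short, at 0.97 above association L5, and was called under each other scaling. Against association L2/3, *S100b*, *C1qc*, and *Lhfpl3* were higher, by 1.32, 1.36, and 4.71 (8.11%, background 1.86%), and no member was at least 2-fold lower (background 6.77%). These comparisons share the association L6b array, so that *Lhfpl3* in both of them is 1 measurement. Likewise, the *S100b* and *C1qc* calls in pairs with association L2/3 share that array, and the *Tyrobp* calls share callosal L2/3. The median L6b enrichment of the 37 members was -0.04, against -0.05 over all named genes. By class it was -0.11 for astrocyte, -0.02 for microglial, 0.22 for precursor, -0.03 for endothelial, and -0.27 for mural markers. Only the precursor and mural medians kept their sign under each scaling, and each of these classes has 4 genes. The precursor median lies between *Pdgfra* and *Gpr17*, both dim in L6b, so it rests on signals near background. Beside *Lhfpl3*, the highest L6b enrichments were 0.88 for *C1qc* and 0.57 for *Pdgfrb*, and the lowest was -0.64 for *Tyrobp*.

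**Figure D4:**
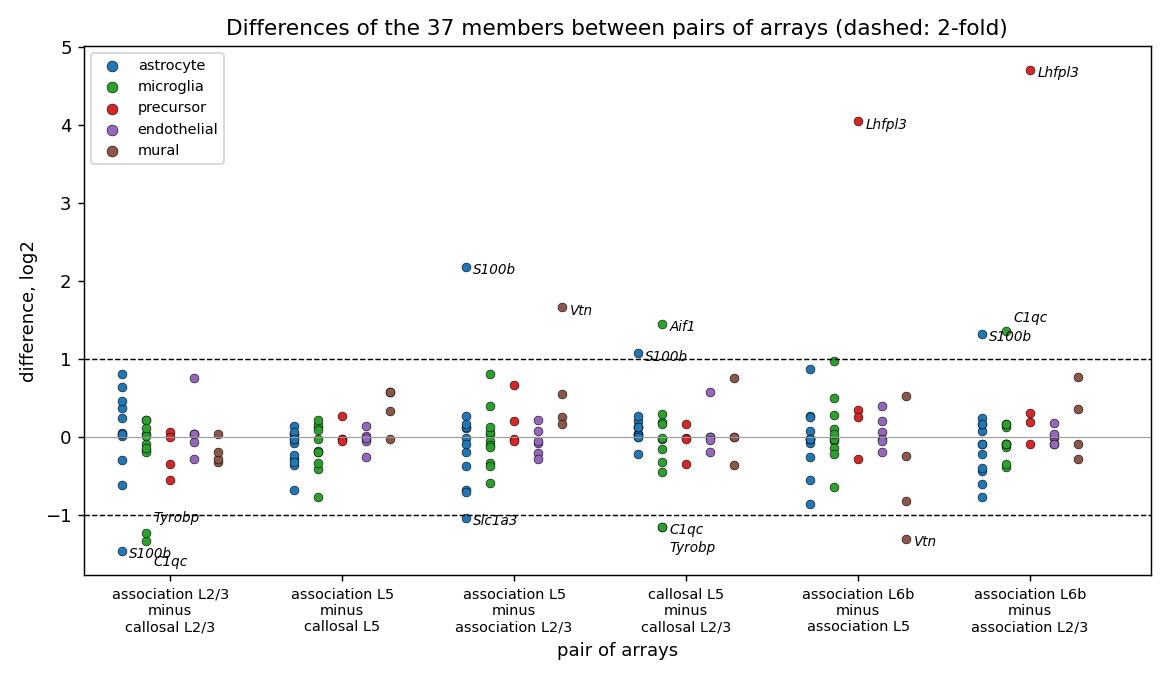
Difference in log2 signal (vertical axis) of each of the 37 markers in 6 pairs of arrays (horizontal axis), 1 point per gene, colored by class, with dashed lines at 2-fold. Most points lie inside the dashed lines, none lies outside between association and callosal L5, and *Lhfpl3* stands at 4.05 and 4.71 in the pairs with association L6b.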

How the data were processed

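The authors hybridized amplified cDNA to GeneChip Mouse Gene 1.0 ST arrays and deposited 1 table of log2 signals for 35556 probe sets. Affymetrix Expression Console is the tool named in the submitters' processing notes. Its version, the summary method, and the genome build were not given in the sources used here, so no coordinates are given. The values, from 1.11 to 14.2, are not centered per gene, although the methods name centering.

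An annotation of the platform gave 1 symbol for 21789 probe sets, several for 1621, and none for 12146. Each array's median was subtracted, and genes with several probe sets were represented by the brightest. No filter on dim signals was used. In 28 of the 37 members (75.7%) at least 2 arrays had the same deposited value, as in 74.8% of all named genes, and the subtraction turns such ties into small differences.

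Calls are a rule of size (at least 2-fold) counted over all 19938 named genes. Members given in full were those apart by at least 2-fold from each other array and the brightest 3 of each class, and those at least 2-fold apart between any arrays were added with their values in view. From each of 14 other lists (158 genes, 145 with a named probe set) at most 4 genes apart from each other array were named, plus *Snap25*, *Slc17a7*, and *Gad1*. The other list genes named (such as *Fcer1g*, *Slc4a4*, *Sox10*, *Nefl*, and *Col1a1*) were picked with their values in view. The members and lists were chosen with earlier results of these data known. Alternatives were the scaling, the probe set, filters, the size of the call, and the arrays of the L6b reference. The steps were checked on simulated data, with Python 3.11.15, pandas 2.3.3, numpy 2.4.6, and matplotlib 3.10.9.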

Additional observations from a re-analysis of the deposited data

How the results depend on the processing

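No paired analysis was possible because each group has 1 array and the labels give no replicate numbers. The 3 genes called against each of the other 4 arrays were called under each scaling and filter tried. With values as deposited, with the 75th percentile subtracted, and under quantile normalization, 0 members were at least 2-fold lower in association L5 than in association L2/3 (*Slc1a3* was no longer called), and 2 were higher in association L6b than in association L5 (*C1qc* beside *Lhfpl3*). Averaging probe sets changed nothing, since each member has 1. Among the members, 31 came to the median of some array and 26 had a mean at or above it, and counts were the same under both filters.

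At 1.5-fold in place of 2-fold, 2 members were higher in association L2/3 than in each other array (*Aqp4* and *Slc1a3*, background 3.52%). In association L5, 1 was lower than in each other array (*Gja1*, background 1.67%). Between association and callosal neurons, 3 were then higher in L2/3 (background 7.09%) and 2 lower in L5 (background 7.02%). Between L5 and L2/3 of association neurons 4 were higher (background 5.45%) and 4 lower (background 9.22%). Association L6b had 3 higher (background 5.05%) and 4 lower (background 8.51%) than association L5, and 2 lower than association L2/3 (background 11.5%). At 4-fold, *Lhfpl3* alone remained against each other array (background 0.251%). In association L2/3, 0 were lower (background 0.0251%), and in callosal L2/3, 0 were higher (background 0.251%). In pairs, 0 were then lower in association than in callosal L2/3 (background 0.557%). In association L5 against L2/3, 1 was higher (*S100b*, background 0.487%) and 0 lower (background 1.03%). In callosal L5 against L2/3, 0 were higher (background 0.617%) and 0 lower (background 0.652%). In association L6b, 0 were lower than in L5 (background 1.21%), and 1 (*Lhfpl3*) was higher than in L2/3 (background 0.542%).

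Over all alternatives the median L6b enrichment ranged from -0.20 to 0.06 for all members, from -0.33 to 0.01 for astrocyte, from -0.15 to 0.09 for microglial, from -0.09 to 0.08 for endothelial, from -0.56 to -0.11 for mural, and from 0.08 to 0.33 for precursor markers, so that the first 4 changed sign. Against the highest other array in place of the mean, *C1qc* had an enrichment of 0.02 and *Tyrobp* of -1.58. Differences of dim members rest on signals near background.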

Other observations

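Genes of reactive astrocytes and of macrophages at the brain's borders were mostly dim and level, and those of fibroblasts were level. Of 10 reactive astrocyte genes, 8 were dim in all 5 arrays (80%, against 41.6% of all named genes). Of the 10, 9 varied by less than 1.5-fold (90%, against 67.1%). The exception was *Serpina3n*, which encodes a secreted protease inhibitor, at 2.45 in association and 0.02 in callosal neurons of L2/3, -0.10 and 0.53 in those of L5, and 0.35 in L6b. Association L2/3 was thus high in this gene, in *Cd68*, and in *Slc1a3*, while *Lcn2* and *Timp1*, which are also induced in reactive astrocytes, were dim there, at -0.31 and -0.85. All 6 border macrophage genes were dim in all arrays, with *Mrc1* at -1.31 to -1.11. All 8 fibroblast genes varied by less than 1.5-fold. Of these, 4 were above the dim mark in all 5 arrays, such as the collagen genes *Col1a1* (1.14 to 1.25) and *Col1a2* (0.81 to 1.02), and 4 were dim in all 5, such as *Dcn* (-0.61 to -0.55). Of 5 blood genes, 1 had a probe set with a single symbol, the heme synthesis gene *Alas2*, which ranged from -0.31 to -0.18.

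Of 5 genes of newly formed oligodendrocytes, *Bcas1* stood at 1.52 in L6b, at 0.88 in association and 0.40 in callosal neurons of L2/3, and at 0.54 and 0.35 in those of L5. The others varied by less than 1.5-fold, and *Enpp6*, which marks the step after the precursor, ranged from -0.97 to -0.78.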
